A study of Mus musculus with 2 samples.

Results

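Bone morphogenetic protein (BMP) ligands and the secreted proteins that bind them were followed through the cells of mouse omental tumors. The set held 10 genes of the 32285 in the single-cell count matrices, each found once by its symbol. The ligands were Bmp2, Bmp4 and Bmp7, and the secreted antagonists and modulators were Grem1, Nog, Chrd, Chrdl1, Twsg1, Fstl1 and Bmper. Tumors came from KPCA, a mouse ovarian cancer line of fallopian tube epithelial origin that overexpresses Ccne1 and Akt2. KPCA.FSTKO is a derivative in which Fst was ablated in the therapy-resistant clone KPCA.C, and KPCA.FSTKO_hFSTL3 is 1 clone of KPCA.FSTKO stably carrying a human FSTL3 plasmid, picked for the FSTL3 it secreted. Both groups therefore carry the Fst knockout in the grafted cells, while the hosts were unmodified. Cells were grafted intraperitoneally into female C57BL/6J mice of 12 to 16 weeks, and omental tumors were taken at day 10 without treatment. Each genotype was 1 library made from 4 pooled tumors, so clone, transgene and library cannot be told apart and no comparison here has a replicate check. All intervals are 95% and cover counting error only.

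BMPs are dimeric ligands of the TGF-beta superfamily that bind type I and type II serine/threonine kinase receptors, which phosphorylate Smad1, Smad5 and Smad9. These enter the nucleus with Smad4 and switch on genes such as the Id family. Secreted antagonists hold the ligand away from its receptors: gremlin-1 (Grem1), noggin (Nog), chordin (Chrd) and chordin-like 1 (Chrdl1) bind BMPs directly. Twisted gastrulation (Twsg1) and BMPER (Bmper) bind BMPs and chordin and can either hinder or help signaling, and Bmp1 and the tolloid-like proteases cut chordin and so free the ligand. Fstl1 is a follistatin-related secreted glycoprotein reported to bind Bmp4. Follistatin (Fst), ablated in this model, and FSTL3, added as the human gene, bind activins tightly and some BMPs less so.

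The promoters of 4 members are shown as the 250 bases before the start of the gene, from RefSeq on GRCm38.p6. They were chosen because Chrd and Bmper were higher in level in stromal-like than in cancer-like cells, Grem1 was lower there and Bmp4 was within a ratio of 2. Sequences run 5′ to 3′ on the strand of the gene, and capitals mark GGCGCC, a GC-rich hexamer that reads the same on both strands.
Bmp4, chr14:46390670-46390919, minus strand: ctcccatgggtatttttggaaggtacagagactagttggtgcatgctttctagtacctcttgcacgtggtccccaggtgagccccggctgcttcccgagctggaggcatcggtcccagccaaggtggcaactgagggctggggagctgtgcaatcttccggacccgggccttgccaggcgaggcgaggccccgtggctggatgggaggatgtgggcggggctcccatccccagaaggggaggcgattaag
Grem1, chr2:113758649-113758898, minus strand: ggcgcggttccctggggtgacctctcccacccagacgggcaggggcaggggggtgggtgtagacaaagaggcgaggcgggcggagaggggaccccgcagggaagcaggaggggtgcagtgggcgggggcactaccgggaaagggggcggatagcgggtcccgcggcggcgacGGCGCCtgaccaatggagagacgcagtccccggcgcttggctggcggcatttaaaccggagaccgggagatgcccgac
Chrd, chr16:20732877-20733126, plus strand: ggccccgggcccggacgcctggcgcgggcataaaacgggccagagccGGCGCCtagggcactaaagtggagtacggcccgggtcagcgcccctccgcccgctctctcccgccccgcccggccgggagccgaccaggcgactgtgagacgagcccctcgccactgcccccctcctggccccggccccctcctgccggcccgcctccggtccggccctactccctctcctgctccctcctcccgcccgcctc
Bmper, chr9:23222826-23223075, plus strand: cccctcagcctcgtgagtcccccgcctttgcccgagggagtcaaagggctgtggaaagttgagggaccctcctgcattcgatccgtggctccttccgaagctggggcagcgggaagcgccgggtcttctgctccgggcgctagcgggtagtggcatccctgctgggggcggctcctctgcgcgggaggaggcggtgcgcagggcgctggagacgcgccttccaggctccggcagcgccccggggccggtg
The hexamer occurred once in the Grem1 window, 78 bases before the start, and once in the Chrd window, 203 bases before it. It was not in the windows of Bmp4, Bmper, Twsg1 or Fstl1, and it was found in 9.59% of the 32851 promoter windows of this length. The Smad-type hexamer CAGACA, or TGTCTG on the other strand, was in 17.1% of all windows and in none of these 6, and TATAAA or TTTATA was in 12.4% of all and in none of these 6. The GC content was 63.2% for Bmp4, 64.4% for Twsg1, 68.0% for Fstl1, 71.6% for Bmper, 72.0% for Grem1 and 78.0% for Chrd, against a median of 52.4% over all windows. A match of letters describes the window and is not a binding site.

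The KPCA.FSTKO library held 168214773 UMIs (unique molecular identifiers, each counting 1 captured RNA molecule) in 7582 barcodes, and the KPCA.FSTKO_hFSTL3 library held 80391504 UMIs in 4244 barcodes. After filters on mitochondrial share and gene number, 6777 and 4041 cells were kept, with medians of 17253 and 15071 UMIs per cell. The libraries shared 12 barcodes, 10 of them among the cells kept. Cells were clustered without the BMP genes described here, and clusters were named from marker lists.

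In KPCA.FSTKO, cancer-like cells were 59.4% of cells (4027), macrophage-like cells 14.8% (1002) and stromal-like cells 6.51% (441). There were also 131 endothelial-like, 46 pericyte-like, 149 neutrophil-like and 95 T and NK-like cells. The labels give the cells as fallopian tube epithelial cells, and the 12 cancer or epithelial markers summed to 3374 CPM (the UMIs of a gene over those of all genes in the class, per 1e6) in cancer-like cells, led by Krt19, against 481 CPM in stromal-like cells. The 12 fibroblast markers, led by Col3a1, summed to 24197 CPM in stromal-like cells. The KPCA.FSTKO_hFSTL3 library stood apart. Here 85.9% of cells (3471) fell in 4 clusters that held acinar (pancreas) genes among their 10 leading genes, called mixed clusters below and put in no class, and only 192 cancer-like and 64 stromal-like cells remained. In KPCA.FSTKO 1.73% of cells (117) were in mixed clusters, 115 of them in 1 cluster whose first leading gene was the globin gene Hbb-bs. These 117 cells carried erythroid genes at 542147 CPM and acinar genes at 58560 CPM, against 4414 and 10741 CPM in the mixed cells of the other library, so the 2 sets of cells are not alike. The median mitochondrial share of KPCA.FSTKO_hFSTL3 was 10.7%, against 3.54% in KPCA.FSTKO. In its cancer-like cells Epcam and Cldn4 were at 0 and the other 10 cancer or epithelial markers were detected, summing to 3183 CPM. For these reasons the results rest mainly on KPCA.FSTKO.

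Because Fst was the gene targeted, its RNA was read first. Fst was at 5.23 CPM (598 UMIs) in KPCA.FSTKO cancer-like cells and 8.91 CPM (79 UMIs) in those of KPCA.FSTKO_hFSTL3, and at 124 and 180 CPM in stromal-like cells. A 3′ count need not cover the edited part of the gene, so these levels do not check the knockout. Human FSTL3 was not in the mouse reference.

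The ligand RNAs were scarce and were spread differently over the classes. Cancer-like cells held 80.5% of the UMIs of all genes in KPCA.FSTKO, and against that share they held 95.7% of the UMIs of Bmp7, 87.4% of Bmp4 and 3.30% of Bmp2. Over all cells kept, KPCA.FSTKO held 91 UMIs of Bmp2, 516 of Bmp4 and 647 of Bmp7, and KPCA.FSTKO_hFSTL3 held 118, 83 and 66. Every ligand stayed under 20 CPM in each KPCA.FSTKO class.

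Bmp4 (chr14:46383520-46390669 on GRCm38), a ligand of mesoderm and epithelium, had 451 of its 516 UMIs in cancer-like cells, 87.4% (84.2 to 90.1). Its level there was 3.94 CPM (3.59 to 4.32), with a UMI in 7.50% of cells. Its level was 4.89 CPM (37 UMIs) in stromal-like cells and 8.51 CPM (4.08 to 15.6; 10 UMIs) in endothelial-like cells. Stromal-like and cancer-like levels did not differ beyond counting error, with a ratio of 1.24 (0.86 to 1.74), although cancer-like cells held the larger share of UMIs. Over all genes, cancer-like cells held 114392726 UMIs and stromal-like cells 7566719. The endothelial-like level was 2.16-fold that of cancer-like cells (1.03 to 4.00), on 10 UMIs. Macrophage-like cells had 0.73 CPM on 10 UMIs, with a UMI in 0.80% of cells.

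Bmp7 (chr2:172868012-172940321), best known from kidney and epithelial development, had 619 of 647 UMIs in cancer-like cells, 95.7%. Its level was 5.41 CPM (4.99 to 5.85) there and 0.40 CPM in stromal-like cells, where 3 UMIs were read, a value 13.6-fold lower (4.65 to 66.4), or a log2 ratio of -3.77, which was -2.33 on 14 stromal-like UMIs with neither the mitochondrial limit nor the upper limit on genes per cell. Stromal-like cells were thus near the 0.36 CPM of macrophage-like cells. Endothelial-like cells had 4.25 CPM on 5 UMIs, 0.79-fold of cancer-like cells (0.25 to 1.84).

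Bmp2 (chr2:133552159-133562885), the ligand tied to bone and to vessel walls, had 3 UMIs in the 4027 cancer-like cells, or 0.03 CPM. Its UMIs were spread over 32 in stromal-like, 22 in macrophage-like, 19 in endothelial-like and 12 in pericyte-like cells. Among these classes the level was highest in pericyte-like cells, at 17.2 CPM (8.87 to 30.0), and endothelial-like cells, at 16.2 CPM (9.73 to 25.2). Stromal-like cells followed at 4.23 CPM and macrophage-like cells at 1.60 CPM. T and NK-like cells had 3.19 CPM on 2 UMIs from 1 cell. The pericyte-like and endothelial-like intervals overlapped almost wholly. Each exceeded stromal-like cells, by 4.06-fold (1.90 to 8.10) and 3.82-fold (2.05 to 6.95), on 44 and 51 UMIs in all, below the 100 UMIs set for a call. In KPCA.FSTKO_hFSTL3, Bmp2 was at 60.0 CPM (15 UMIs) in endothelial-like and 49.0 CPM (13 UMIs) in pericyte-like cells, but 10 of the 13 pericyte-like UMIs came from 1 cell.

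**Figure D1:**
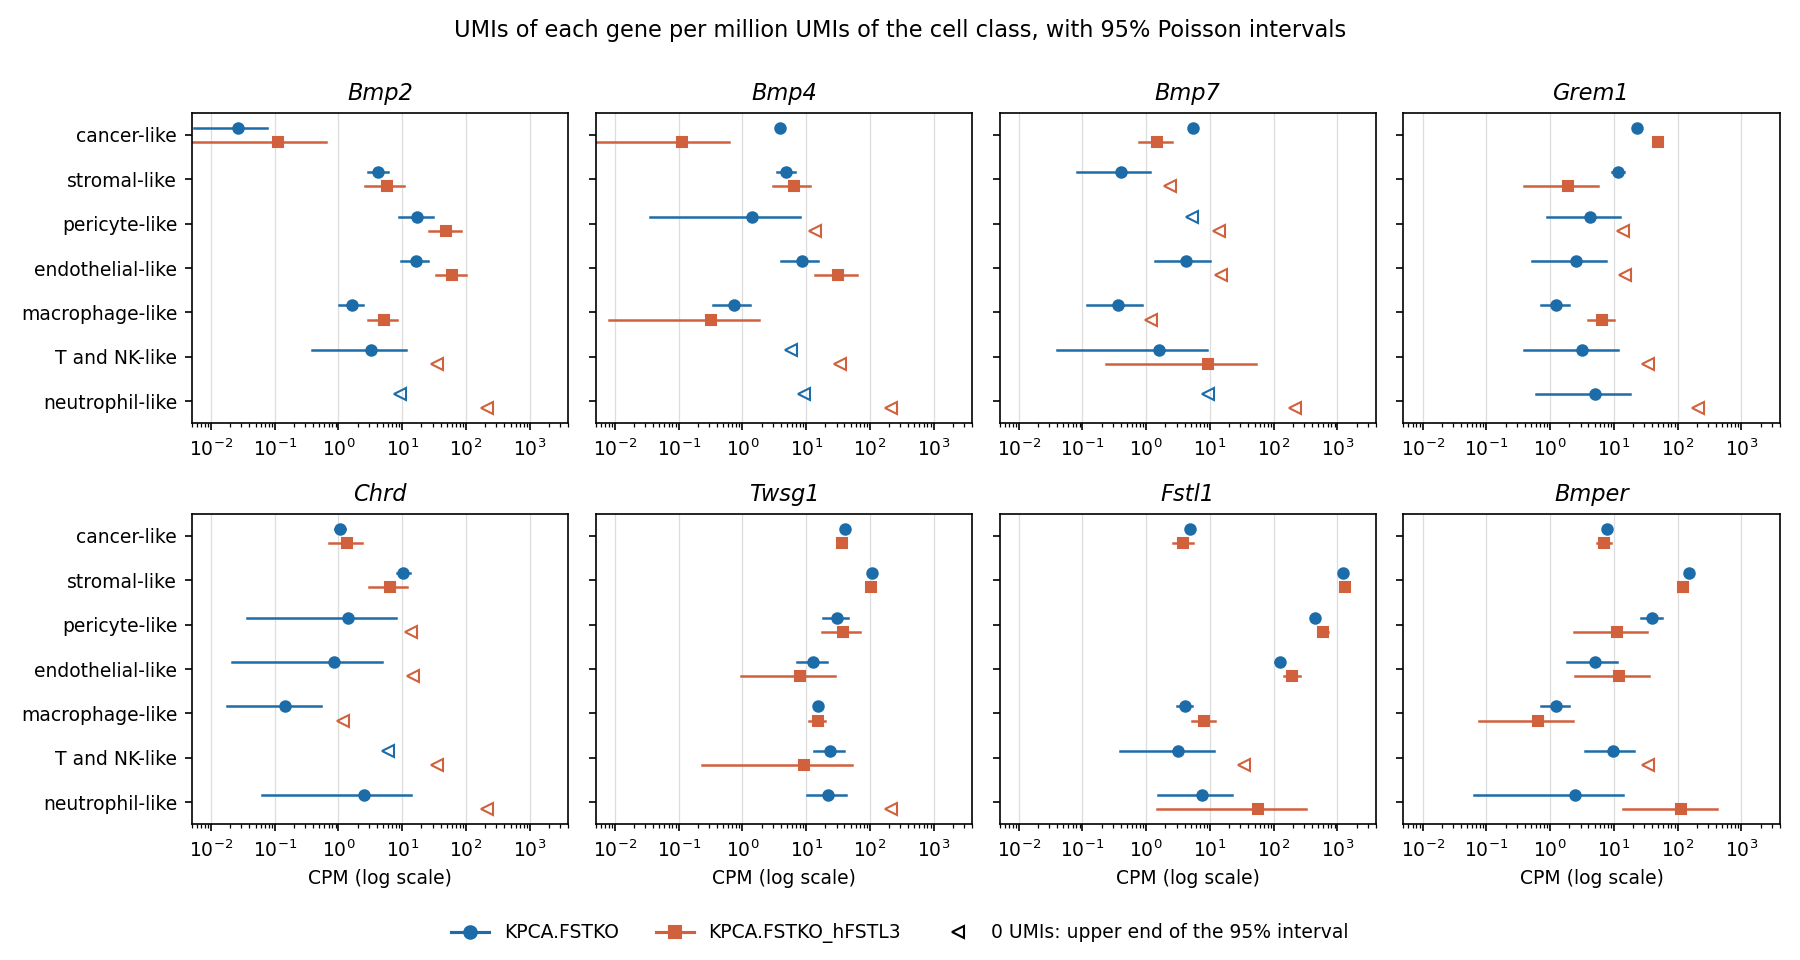
Level in CPM (log axis) of 8 of the genes in 7 cell classes of both libraries, with 95% Poisson intervals as bars and an open triangle at the upper bound where no UMI was read. Fstl1 and Bmper are highest in stromal-like cells, Grem1 is highest in cancer-like cells, and Bmp2 is highest in pericyte-like and endothelial-like cells.

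Fstl1, Twsg1, Grem1 and Bmper had more UMIs than any of the 3 ligands. Whether intronic reads were counted is not given in the sources used here, so gene length could enter these counts. Bmper spans 262 kb and Bmp4 7.15 kb. In level the antagonists were mostly stromal, and Grem1 was not. Fstl1 held 10426 UMIs in KPCA.FSTKO, Twsg1 5862, Grem1 2846, Bmper 2121 and Chrd 208. Chrdl1 had 5 UMIs, all in stromal-like cells. Nog, the classical noggin antagonist, was read 0 times in KPCA.FSTKO and 1 time in the other library, so it was not detectable at this depth.

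Fstl1 (chr16:37776873-37836514) was the most abundant member and, among members with at least 100 UMIs, the most stromal. Stromal-like cells held 89.3% of its UMIs, at 1231 CPM (1206 to 1256), and cancer-like cells were at 4.91 CPM, a ratio of 251 (230 to 273). The size of this ratio depended on which cells were called cancer-like: its log2 value of 7.97 was 8.78 with 20 principal components and 8.88 with each library clustered on its own. A Fstl1 UMI was read in 91.8% of stromal-like cells and 4.99% of macrophage-like cells. With every cell thinned to 1000 UMIs, the share was 57% (52.2 to 61.8) in stromal-like, 1.04% in cancer-like and 0.81% in macrophage-like cells. The cancer-like share thus lay near that of macrophage-like cells. Pericyte-like cells came next to stromal-like cells, at 447 CPM (312 UMIs), and endothelial-like cells had 123 CPM (145 UMIs). Fstl1 was among the 10 genes leading the stromal-like cluster although it took no part in the clustering.

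Bmper (chr9:23223076-23485200), an endothelial and stromal BMP modulator, was at 151 CPM (142 to 160; 1139 UMIs) in stromal-like cells and 7.95 CPM (909 UMIs) in cancer-like cells, a ratio of 18.9 (17.3 to 20.7). In UMIs the classes were closer, with 53.7% stromal-like and 42.9% cancer-like. Pericyte-like cells had 40.1 CPM (28 UMIs), and endothelial-like cells, at 5.10 CPM (6 UMIs), did not stand above cancer-like cells. After thinning, 13.8% of stromal-like, 1.07% of cancer-like and 0.10% of macrophage-like cells had a UMI.

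Grem1 (chr2:113746164-113758646), an antagonist of Bmp2, Bmp4 and Bmp7, was lower in stromal-like than in cancer-like cells, whereas Chrd, Twsg1, Fstl1 and Bmper were higher there. Cancer-like cells held 2684 of its 2846 UMIs, 94.3%, against 80.5% of all UMIs, at 23.5 CPM (22.6 to 24.4). Stromal-like cells had 11.5 CPM (87 UMIs), a value 2.04-fold lower (1.65 to 2.56). This lay at the edge of the 2-fold size set for a call, and the call was lost under 4 alternatives given in the closing section. Endothelial-like cells had 3 UMIs and macrophage-like cells 1.24 CPM. Grem1 was uneven within cancer-like cells: 23.2% had a UMI, and the highest cell held 33.

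Chrd (chr16:20733127-20742384) was low, at 10.4 CPM (79 UMIs) in stromal-like and 1.07 CPM (122 UMIs) in cancer-like cells, a ratio of 9.79 (7.28 to 13.1). By UMIs it was nonetheless 58.7% cancer-like and 38.0% stromal-like. Over all KPCA.FSTKO cells, Twsg1 (chr17:65921972-65951226) was the most widely read member, with a UMI in 43.4%. It had a UMI in 58.6% of cancer-like, 65.8% of stromal-like (below the 91.8% of Fstl1) and 16% of macrophage-like cells. Its level was 110 CPM (832 UMIs) in stromal-like cells and 40.7 CPM (4657 UMIs) in cancer-like cells, a ratio of 2.70 (2.51 to 2.91). By UMIs it was 79.4% cancer-like, close to the 80.5% of all genes. It was lower elsewhere, at 30.1 CPM in pericyte-like, 15.3 CPM in macrophage-like and 12.8 CPM in endothelial-like cells.

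**Figure D2:**
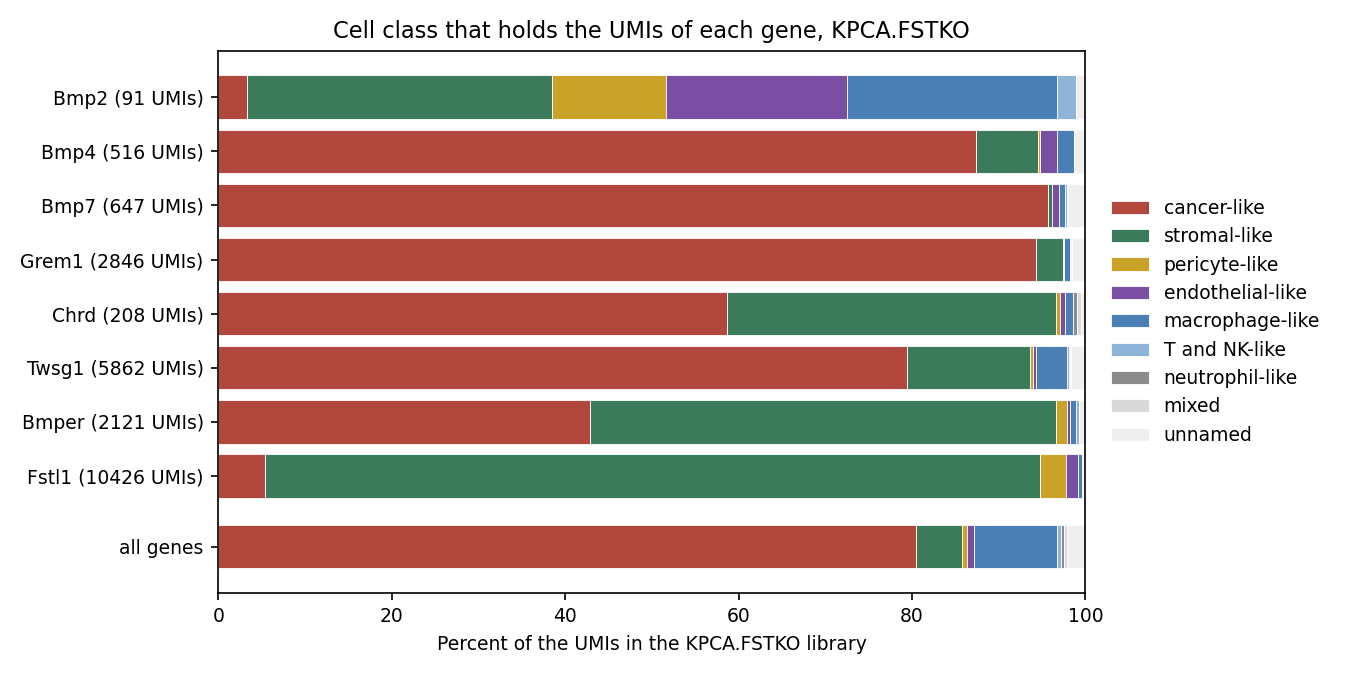
Stacked bars of the percent of each gene's UMIs held by each cell class in KPCA.FSTKO, with a bar for all genes for comparison. Cancer-like cells hold 80.5% of the UMIs of all genes, 94.3% of Grem1 and 95.7% of Bmp7, stromal-like cells hold 89.3% of Fstl1, and Bmp2 is spread over host classes.

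Put through 1 rule of size, at least 100 UMIs over both classes and a CPM ratio of at least 2 either way, 7 of the 10 members had enough UMIs to compare stromal-like with cancer-like KPCA.FSTKO cells. Chrd, Twsg1, Fstl1 and Bmper were higher in stromal-like cells, Bmp7 and Grem1 lower, and Bmp4 neither. By the same rule 15.0% of all 13453 genes compared were higher in stromal-like cells and 18.0% lower. The median log2 ratio was 1.43 over the 7 members and -0.17 over all genes. Stromal-like cells carried the cancer or epithelial markers at 481 CPM and macrophage-like cells at 464 CPM, while Grem1 was at 11.5 and 1.24 CPM in them. The source of the stromal-like Grem1 UMIs was not tested. In KPCA.FSTKO_hFSTL3, 4 members had enough UMIs: Twsg1 (2.84-fold), Fstl1 (336-fold) and Bmper (17.2-fold) were higher in stromal-like cells and Grem1 was 26.3-fold lower (8.94 to 128), on 3 stromal-like UMIs. The sizes moved with the cells counted as cancer-like. For Fstl1 the log2 ratio of 8.39 was 5.09 with 20 principal components and 4.27 with the mixed clusters taken as cancer-like. For Bmper it was 3.31 in place of 4.10, and for Grem1 -3.61 in place of -4.72, with the mixed clusters taken as cancer-like. Of all 8813 genes there, 11.6% were higher and 17.5% lower.

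Against endothelial-like cells, 7 members could again be compared with cancer-like cells. Bmp4 and Fstl1 were higher in endothelial-like cells, by 2.16-fold and 25.1-fold, and Grem1 and Twsg1 were 9.19-fold and 3.19-fold lower. Of 13151 genes, 17.2% were higher and 22.0% lower. Only Twsg1, Fstl1 and Bmper had enough UMIs against stromal-like cells. All 3 were lower in endothelial-like cells (16.5% of 8537 genes were, while 14.3% were higher) and in pericyte-like cells (14.2% of 8210 genes were, while 8.19% were higher).

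**Figure D3:**
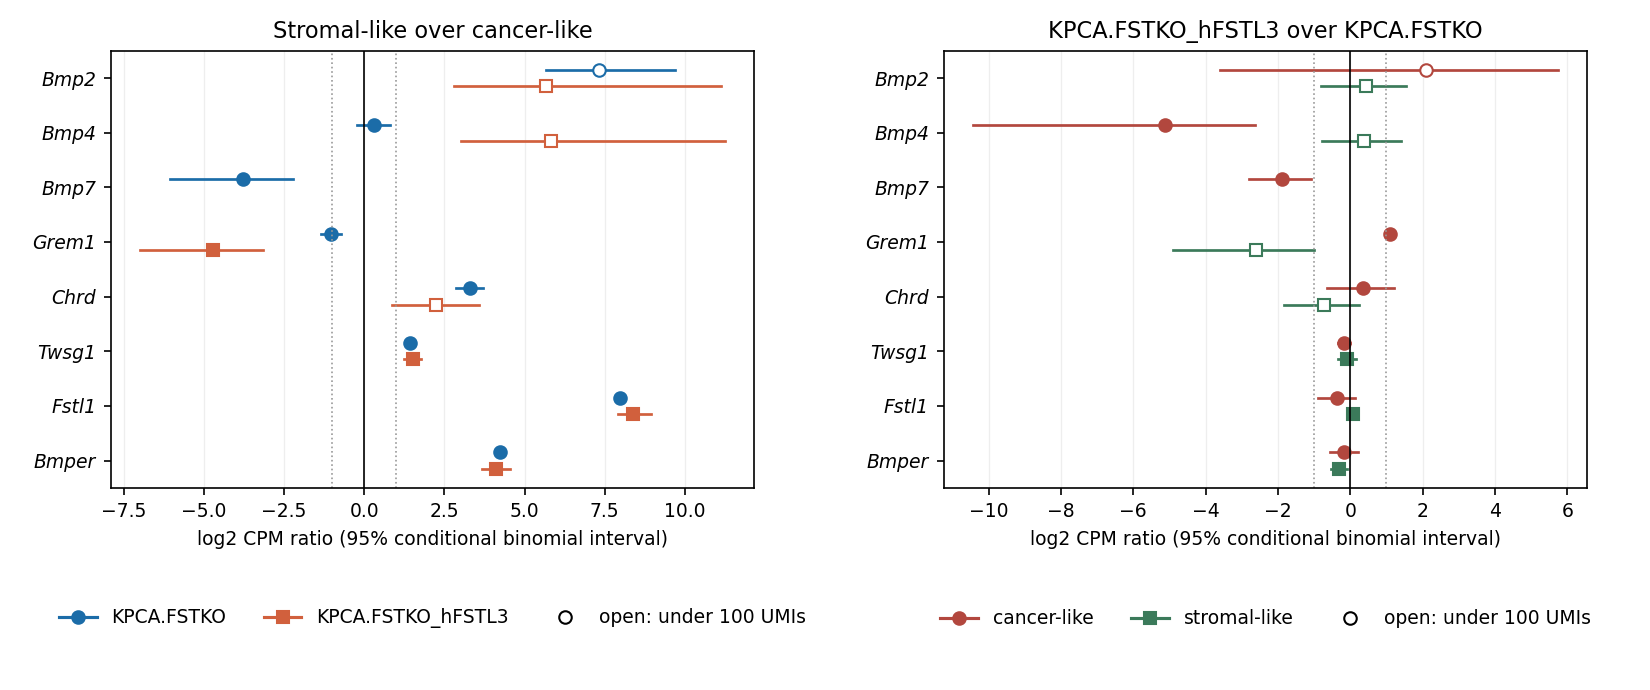
Log2 CPM ratios with 95% intervals, stromal-like over cancer-like cells in each library on the left and KPCA.FSTKO_hFSTL3 over KPCA.FSTKO in cancer-like and stromal-like cells on the right. Open symbols rest on fewer than 100 UMIs and dotted lines mark a ratio of 2 either way. Fstl1 lies at 7.97 in KPCA.FSTKO, and Bmp4 and Bmp7 lie at -5.13 and -1.88 for cancer-like cells on the right.

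The 441 stromal-like cells of KPCA.FSTKO were clustered again into 8 sub-clusters, and the antagonists differed between these in level. Fstl1 was read in every sub-cluster. It was lowest, at 579 CPM (547 to 612), in 118 cells led by Cxcl13, Lrrn4 and Slpi, with 5 of 11 mesothelial markers raised. It was highest, at 1995 CPM (1932 to 2059), in 90 cells with Moxd1, Acta2 and Tagln among their 10 leading genes. Those 90 cells had 5 of 10 myofibroblast markers raised. Next was 1728 CPM in 52 cells led by Unc5c, Sparcl1 and Postn, with 7 of 12 fibroblast markers raised. Bmper followed another order. It was 326 CPM (288 to 366) in the Postn cells, 187 CPM in the Acta2 cells and 74.4 CPM (63.1 to 87.1) in the Cxcl13 cells. It reached 515 CPM (426 to 616) in 35 cells whose mitochondrial share was 10.7%. Twsg1 spanned a narrower range, from 64.9 to 164 CPM, highest in the Acta2 cells.

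Grem1 was held mainly by 1 stromal sub-cluster. The 70 cells led by Calb2 and Gipr had 60 of the 87 stromal-like UMIs, at 39.1 CPM (29.8 to 50.3), above the 1.9 to 13.4 CPM of the other sub-clusters in which it was read. Those 60 UMIs came from 13 cells, with 21 in 1 of them. These cells carried the cancer or epithelial markers at 490 CPM, close to the 481 CPM of all stromal-like cells. The source of their Grem1 UMIs was not tested. The 24 mitotic cells, with 6 of 12 cancer markers raised and 1378 CPM of that list, had Grem1 at 13.4 CPM (10 UMIs). Bmp4 stood out in the smallest sub-cluster, where 8 UMIs gave 106 CPM (45.6 to 208), against 6.7 CPM or less elsewhere. This sub-cluster of 11 cells had Clec3b, Scara5 and Pi16, genes of adventitial fibroblasts, among its 10 leading genes. The 8 UMIs came from 2 cells, and 7 of 16 acinar markers were raised in this sub-cluster. In KPCA.FSTKO_hFSTL3 the same sub-cluster of 6 cells held 6 Bmp4 UMIs of the 10 in stromal-like cells. Bmp2 was highest in the Acta2 cells, at 8.4 CPM (16 UMIs), with 5.8 CPM (12 UMIs) in the Cxcl13 cells.

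**Figure D4:**
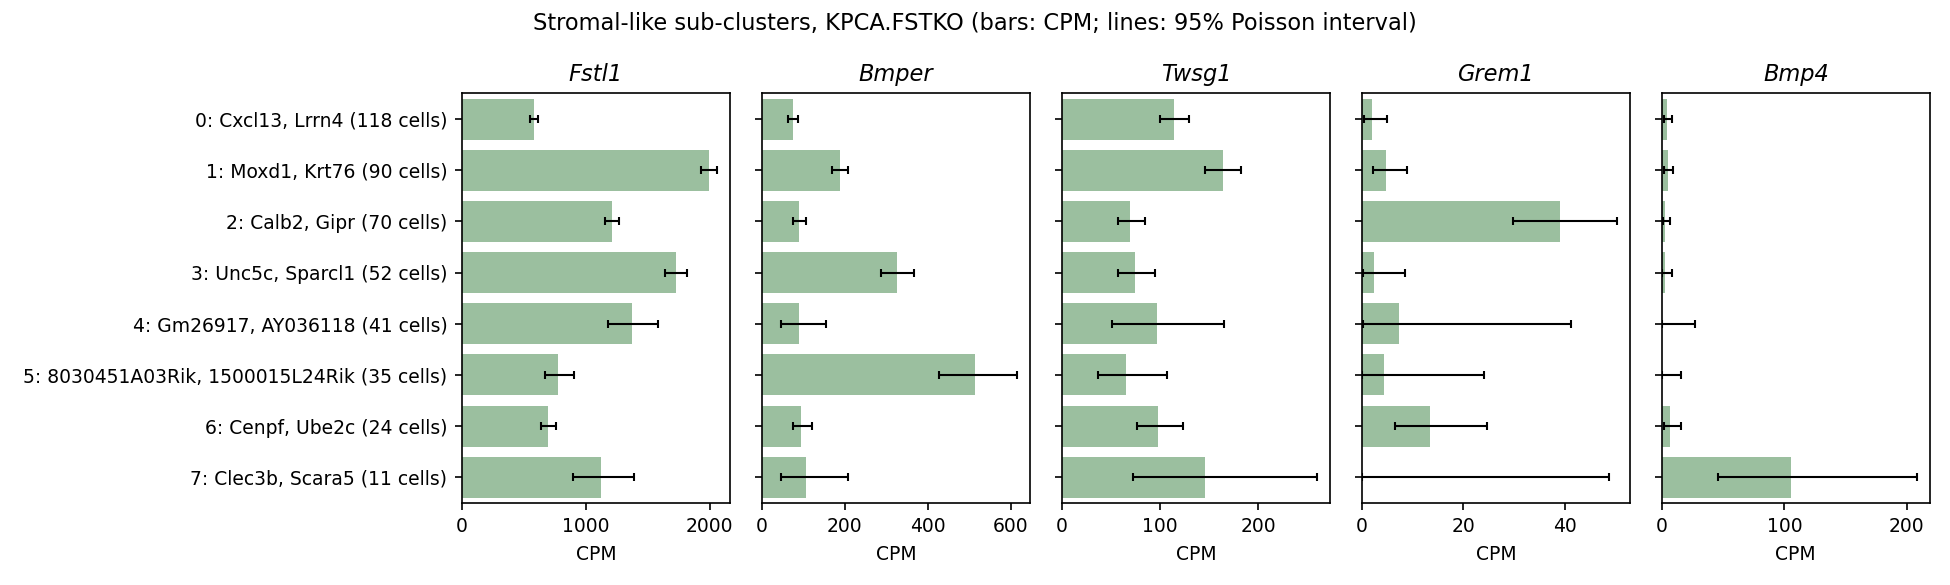
Level in CPM of Fstl1, Bmper, Twsg1, Grem1 and Bmp4 in the 8 stromal-like sub-clusters of KPCA.FSTKO, with 95% Poisson intervals. Fstl1 peaks at 1995 CPM in the Acta2 cells, Grem1 at 39.1 CPM in the Calb2 cells and Bmp4 at 106 CPM in 11 Pi16 cells.

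Cancer-like cells were also uneven. Over 6 clusters, Grem1 was lowest, at 16.3 CPM, in cells led by Gas5 and Sprr1a. It was highest, at 31.2 CPM, in cells with Wfdc2 and Areg among their 10 leading genes. Bmp7 was highest, at 9.7 CPM (187 UMIs), in the mitotic cells, with Cenpf and Top2a among their 10 leading genes. It was lowest, at 3.0 CPM (96 UMIs), in the Ppp2r2b and Pcdh9 cells. Those Ppp2r2b cells had the highest Bmp4 level, 4.8 CPM, and the Gas5 cells the lowest, 1.7 CPM. Bmper was at 30.9 CPM in the cluster with a mitochondrial share of 10.6% and between 2.5 and 12.3 CPM in the other clusters. Of the 562 Fstl1 UMIs of cancer-like cells, 306 lay in the Wfdc2 cells, and 58 came from 1 cell.

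Between the libraries, cancer-like cells differed in both ligands that could be compared. Bmp4 had 1 UMI in the 192 cancer-like cells of KPCA.FSTKO_hFSTL3 (0.11 CPM), against 451 UMIs (3.94 CPM) in KPCA.FSTKO, a value 34.9-fold lower (6.24 to 1383). Bmp7 was at 1.47 CPM (13 UMIs), 3.69-fold lower (2.14 to 6.97). Its log2 ratio of -1.88 was -2.70, on 8 UMIs, with each library clustered on its own. Grem1 was instead higher, at 50.1 CPM (45.5 to 55.0; 444 UMIs), a ratio of 2.13 (1.93 to 2.36). Twsg1 (0.89), Bmper (0.89) and Chrd (1.27) were within a ratio of 2. Fstl1 (0.78) was too, but its log2 ratio turned from -0.36 to 3.75 with 20 principal components and to 3.77 with the mixed clusters taken as cancer-like, which made it a call. Of 13114 genes, 3.46% were higher and 7.04% lower by the same rule. No member was called in stromal-like cells, where Twsg1, Fstl1 and Bmper had ratios of 0.94, 1.05 and 0.81 and 1.46% of 8452 genes were higher and 2.47% lower. Stromal-like Grem1 was 11.5 CPM (87 UMIs) in KPCA.FSTKO and 1.90 CPM (3 UMIs) in KPCA.FSTKO_hFSTL3, with only 3 of 64 stromal-like cells of the latter in the Calb2 sub-cluster. The Grem1 call was lost under 4 alternatives. Its log2 ratio of 1.09 was 0.93 with a mitochondrial share under 10%, 0.99 with TMM scaling, 0.74 with 20 principal components and -0.0089 with the mixed clusters taken as cancer-like. Bmp4 and Bmp7 were lower under the same 4, though the log2 ratio of Bmp4 shrank from -5.13 to -2.89 and -1.96 under the last 2. Within the cancer-like class the median mitochondrial share was 3.62% in KPCA.FSTKO_hFSTL3 and 3.69% in KPCA.FSTKO. Its 16 acinar markers summed to 447 CPM, led by Ctrb1, and 33.0 CPM, led by Cela1, with all 16 detected in both, and their part in these ratios was not tested.

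Within cancer-like clusters, Bmp4 was at 0 in 5 of the 6 clusters of KPCA.FSTKO_hFSTL3 and had 1 UMI in the mitotic cluster. In the Ppp2r2b cells, 16.2 UMIs would be read at the KPCA.FSTKO level and 0 were. In the 3 clusters with fewest cells the interval of the ratio reached past 1, so a difference was not detectable there. Bmp7 was lower in the Ppp2r2b, Wfdc2 and mitotic cells and equal in the Gas5 cells (5.8 and 5.9 CPM, 5 UMIs in the latter). Grem1 was higher in 5 of the 6 clusters, by 1.84-fold to 3.36-fold, and lower in the cluster of high mitochondrial share, where 1 UMI was read in 8 cells. Fstl1 went both ways, at 3.35-fold (1.75 to 6.02) in the mitotic cells and 0.49-fold (0.27 to 0.84) in the Wfdc2 cells. In the other clusters the interval of its ratio spanned 1.

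**Figure D5:**
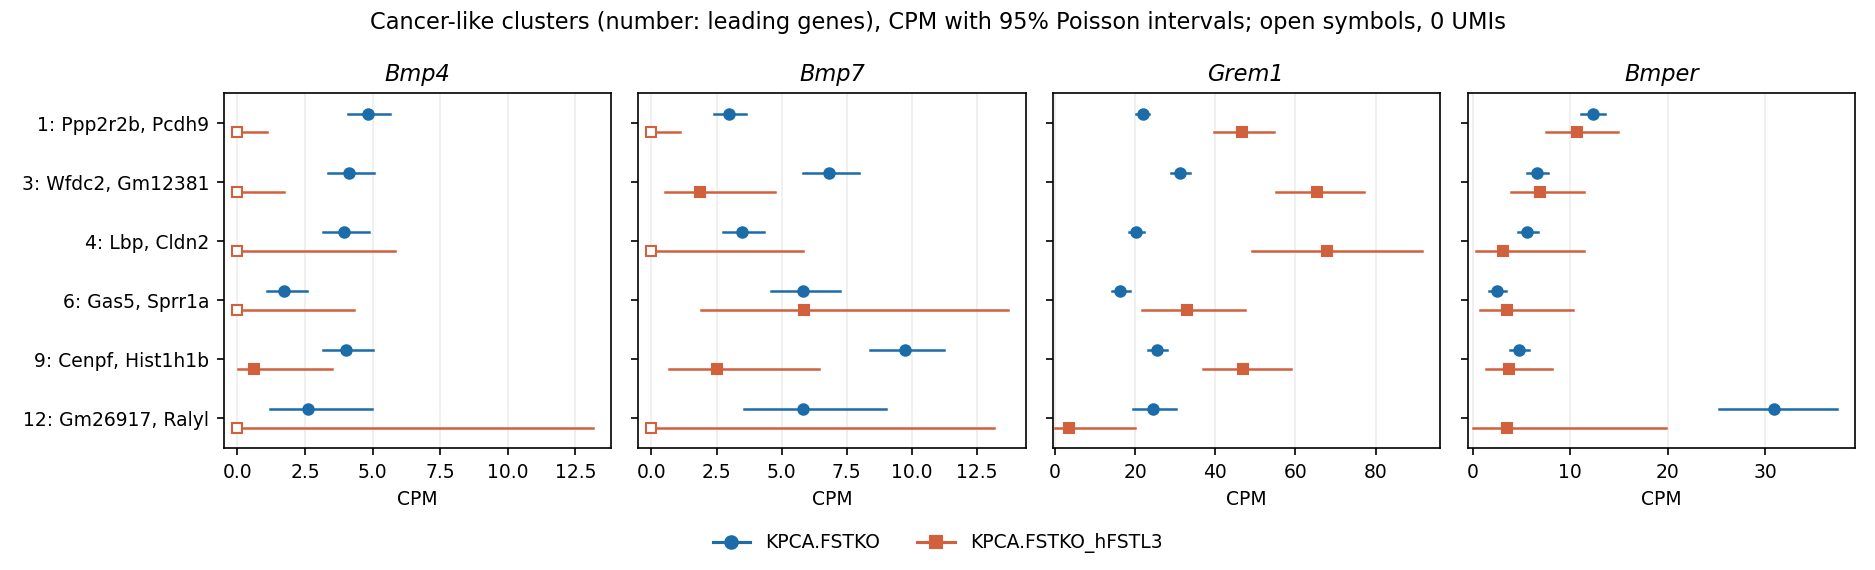
Level in CPM of Bmp4, Bmp7, Grem1 and Bmper in the 6 cancer-like clusters of both libraries, with 95% Poisson intervals. Bmp4 of KPCA.FSTKO_hFSTL3 is at 0 in 5 clusters, and Grem1 is higher in that library in 5 of the 6.

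The mixed clusters held 78.4% of the UMIs of all genes in KPCA.FSTKO_hFSTL3. Their shares of Bmp4 (63 of 83 UMIs, 75.9%) and Bmp7 (52 of 66, 78.8%) were near that value. Those of Bmp2 (64 of 118, 54.2%), Grem1 (1034 of 1518, 68.1%) and Fstl1 (4227 of 6537, 64.7%) were below it. Their Grem1 level was 18.9 CPM and their Fstl1 level 77.3 CPM. They carried markers of several types, with 10741 CPM of acinar, 5209 CPM of macrophage, 4414 CPM of erythroid, 2628 CPM of cancer or epithelial, 2014 CPM of monocyte and 1817 CPM of fibroblast genes, so no level there can be given to a cell type.

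The rest of the pathway gave the members their setting. Of 54 other pathway genes, 31 had enough UMIs to compare stromal-like with cancer-like KPCA.FSTKO cells. Of these, 15 were higher in stromal-like cells, 2 lower and 14 neither, with a median log2 ratio of 0.98. Of all 13453 genes compared, 15.0% were higher and 18.0% lower, with a median log2 ratio of -0.17. Among other ligands, Gdf6 was 631-fold higher in stromal-like cells (167 against 4 UMIs). Bmp6, a ligand of iron control and endothelium, was 0.60-fold (0.24 to 1.26) and was highest in endothelial-like cells, at 31.5 CPM (22.2 to 43.4). Bmp8b had too few UMIs.

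Among other antagonists, Fst (23.6-fold), Fstl3 (5.48-fold) and Nbl1 (5.20-fold) were higher in stromal-like cells, as were most of the antagonists above, and Crim1, a membrane-bound BMP-binding protein, was 0.71-fold (0.65 to 0.78). The chordin protease Bmp1 was 10.7-fold higher in stromal-like cells, and chordin was also higher there. Tll1 was 0.56-fold (0.43 to 0.72), and Tll2 had 12 UMIs in all. Of 11 receptors compared, Bmpr1b, Acvrl1, Eng and Bambi were higher in stromal-like cells and none was lower, beside 15.0% and 18.0% of all genes. The 3 most abundant, Bmpr2 (1.73-fold), Bmpr1a (1.55-fold) and Acvr1 (1.12-fold), were within a ratio of 2. Smad1 (2.05-fold) and Smad5 (2.03-fold) lay just past it and Smad4 (1.23-fold) within.

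The target genes did not move as 1 group. Id3 was 11.2-fold, Id4 16.5-fold, Atoh8 11.3-fold and Msx1 257-fold higher in stromal-like cells, while Id1 and Id2 were 3.98-fold and 2.99-fold lower. Smad7, an inhibitory Smad, was 1.63-fold (1.53 to 1.74). In levels, Id1 was 72.6 CPM in cancer-like, 18.2 CPM in stromal-like and 97.8 CPM in endothelial-like cells, and Id3 was 35.2, 394 and 224 CPM. Between the libraries, 25 of the 54 could be compared in cancer-like cells: Acvr2b was higher, and Nbl1, Rgma and Id3 were lower, beside 3.46% and 7.04% of all genes. Id3 was 35.2 CPM in KPCA.FSTKO and 8.01 CPM in KPCA.FSTKO_hFSTL3 (a ratio of 0.23, 4.4-fold lower, 3.48 to 5.64), while Id1 (0.88-fold), Id2 (1.79-fold) and Smad7 (1.65-fold) were within a ratio of 2. In stromal-like cells Smad6 alone of 25 was higher and none was lower, beside 1.46% and 2.47% of all genes.

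Ligand and antagonist RNA could also be read in the same cells. With KPCA.FSTKO cells thinned to 3000 UMIs, 2.11% of 3881 cancer-like cells had a UMI of any of the 3 ligands and 20.7% of any of the 7 antagonists, and 26 of the 82 cells with a ligand UMI had both. Of 392 stromal-like cells, 91.8% had an antagonist UMI, as did all 16 cells with a ligand UMI, which is near what the share of 91.8% gives. For a ligand and an antagonist UMI, macrophage-like cells had 0.87% and 5.31%. Endothelial-like cells had 10.3% (4.24 to 20.1) and 23.5% of 68 cells. Pericyte-like cells had 8.11% (1.70 to 21.9) and 73.0% of 37 cells. With cancer-like cells thinned to 10000 UMIs, each of Bmp4 and Bmp7 was set against Grem1, Twsg1, Bmper and Fstl1, and in 7 of these 8 pairs the intervals with and without the ligand UMI overlapped. Grem1 was read in 26.2% (18.8 to 34.8) of the 126 cells with a Bmp4 UMI and 14.2% (13 to 15.4) of the 3201 without. For Bmp4 and Twsg1 the shares were 42.9% (34.1 to 52.0) and 33.0% (31.4 to 34.6), with intervals that barely overlapped. For Bmp7 and Grem1 they were 21.0% (14.2 to 29.2) and 14.4%, and for Bmp7 and Twsg1 27.4% and 33.6%. An overlap of intervals does not show that the shares are equal. Cells with a ligand UMI were not matched on anything but depth.

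Other genes followed the members over the 16 clusters with at least 50 KPCA.FSTKO cells. As a description over points that share 1 library, Pearson r of log2(CPM + 1) was highest for Fstl1 with the collagen gene Col5a2 (0.99), the procollagen protease Adamts2 (0.98) and Meg3 (0.98). Grem1 was most like the alarmin Il33 (0.93), the matrix protease Mmp3 (0.92) and Tead2 (0.92). Twsg1 was most like Vegfd (0.95), Mpp6 (0.93) and the WNT enhancer Rspo3 (0.92). For Bmper the closest were Kiz (0.96), Zfp354c (0.95) and Igsf3 (0.93), and for Chrd they were Lvrn (0.90), Srpx (0.90) and Lamc3 (0.87). Bmp4 followed A930004D18Rik (0.96), Tns2 (0.96) and the natriuretic peptide receptor Npr2 (0.95), and Bmp7 followed Sgk2 (0.93), Gm29680 (0.91) and Gm9833 (0.90).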

How the data were processed

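Omental tumors were profiled by 10x Genomics 3′ single-cell RNA sequencing. The full genotype of the line is not reported here. The deposited values are counts: UMIs per gene and barcode, made by the authors by alignment to mm10. The methods and the submitters' processing notes name Cell Ranger 3.1.0, whereas the matrix headers name 7.2.0, and whether intronic reads were counted is not given in the sources used here. The barcodes numbered 7582 and 4244, the final cell numbers given in the methods, yet the filter stated there (mitochondrial share under 20%, more than 200 and fewer than 8000 genes) left 6777 and 4041.

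Libraries were log-normalized, merged and clustered in Seurat 5.3.0 (R 4.3.3; 2000 variable genes, 10 principal components, 20 neighbors, Louvain resolution 0.8), with all BMP pathway genes and the genes the study names left out of the variable genes. The 21 clusters were named from marker lists; the naming rule was written after clusters were seen. Clusters with at least 2 acinar genes among their 10 leading genes (mixed), and unnamed clusters, entered no class. Scrublet (scanpy 1.11.5) marked 90 cells (1.33%) and 1 cell (0.0247%), too few in KPCA.FSTKO_hFSTL3 for the caller to have worked; marked cells stayed in, and leaving them out was an alternative.

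UMIs were summed per class and given as CPM with exact Poisson intervals, shares with Clopper-Pearson intervals and ratios with conditional binomial intervals (numpy 2.4.6, scipy 1.17.1, pandas 2.3.3, matplotlib 3.10.9). No test was possible with 1 library per genotype. Ratios were called at 100 UMIs and 2-fold, across all genes. The floor for 0 counts was 3 counts, and PCR was corrected by UMIs. The calculations were tested on simulated data. All members were named, with the 3 most abundant genes of each other pathway role and the 3 genes most correlated with each member of at least 100 UMIs; other pathway genes named were those past the size rule. The members and lists were chosen with earlier results of these data known. Promoters came from RefSeq (GRCm38.p6), in which 6 of the 10 members matched. Alternatives changed the barcode filter, clustering, doublets, cells summed, minimum count, thinning depth and scaling (TMM, edgeR 4.0.16).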

Additional observations from a re-analysis of the deposited data

Results flagged for a closer look

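For Bmp4, Grem1, Chrd and Fstl1 the KPCA.FSTKO_hFSTL3 over KPCA.FSTKO ratio went one way among cancer-like cells and the other way among stromal-like cells. How many of all genes do so was not computed, so this is not read as a trait of the members. The difference between the classes was not tested, since each genotype has 1 library. For Bmp4 the log2 ratio was -5.13 in the cancer-like class, and 0.38 among stromal-like cells (10 against 37 UMIs). For Grem1 the cancer-like ratio was 1.09 and the stromal-like ratio -2.59, the latter on 3 and 87 UMIs. The Chrd values were 0.34 and -0.72, and the Fstl1 values -0.36 and 0.07, and all 4 of these intervals spanned no change. With no filter beyond 200 genes the cancer-like Chrd value was -0.54, so both classes then went the same way.

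The mixed clusters, which entered no comparison, held Fstl1 at 77.3 CPM and Bmper at 13.1 CPM in KPCA.FSTKO_hFSTL3. In the 117 mixed cells of KPCA.FSTKO, Fstl1 was at 5.88 CPM (3 UMIs) and Bmper at 0, but erythroid genes made up most of their UMIs (542147 CPM, against 4414 CPM in the other library), so the 2 sets of cells are not alike.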

How the results depend on the processing

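No paired analysis was possible because each genotype has 1 library. Of 132 recomputed counts of members past the size rule, 119 stayed within 1.5 times the count reported and 13 did not. In KPCA.FSTKO, the members lower in stromal-like than cancer-like cells went from 2 to 1, Grem1 being lost, with no filter beyond 200 genes, a mitochondrial share under 10%, Scrublet doublets left out or TMM scaling. In KPCA.FSTKO_hFSTL3, dropping the minimum count took that comparison from 3 to 6 higher and from 1 to 3 lower. Between the libraries, cancer-like members higher went from 1 (Grem1) to 0 with a mitochondrial share under 10% or TMM scaling and to 3 with no minimum count. With 20 principal components, or with the mixed clusters taken as cancer-like, that count stayed at 1 but Fstl1 took the place of Grem1. The stromal-like members lower went from 0 to 1 (Grem1) with no filter, a mitochondrial share under 10% or a minimum of 20 UMIs and to 3 with no minimum count. Of the CPM values 75 moved and 420 did not, and of the percents 115 moved and 400 did not. The percents included shares of cells with a UMI, recomputed at 3000 UMIs or without thinning in place of 1000 UMIs. Such shares rise with depth, so the 115 do not measure dependence on processing alone. Of the recomputed log2 ratios, 335 stayed within their interval, 42 moved out of it and 1 was a called value that changed sign. With 14 values not called, 15 log2 ratios changed sign. The called one, Grem1 between the libraries in cancer-like cells, was -0.0089 with the mixed clusters taken as cancer-like, where Bmp4 was -1.96, Bmper 0.64 and Fstl1 3.77. With 20 principal components these were 0.74 for Grem1, -2.89 for Bmp4, 0.30 for Bmper and 3.75 for Fstl1. Stromal-like Fstl1 between the libraries (0.07) was -0.11 with TMM scaling and -0.08 with each library clustered on its own. Stromal-like over cancer-like Grem1 was -0.48 with no filter. Without the highest cell of each class, an alternative chosen after seeing the data, it was -1.40. The cause of these changes was not tested. Leaving out the 5% of cells of each class with most UMIs of a gene took away most positive cells where few were positive, so its ratios follow from how many cells had a UMI and are not read as tests. Bmp4 was read in 25 of 441 stromal-like and 302 of 4027 cancer-like KPCA.FSTKO cells, and Grem1 in 29 and 935. By this alternative the members lower in stromal-like cells went from 2 to 3, Bmp4 becoming a call (-1.72, on 2 and 100 UMIs), Grem1 was -3.77, and Chrd had too few UMIs left to compare. Differences between the libraries in stromal-like ligand levels rest on few UMIs and were not detectable at this depth.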
